A study of Arabidopsis thaliana with 2 samples.

Results

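GDSL-type esterases and lipases are a large plant family of serine hydrolases, named for the Gly-Asp-Ser-Leu motif around the active-site serine, and most members carry a signal for secretion. Members were chosen by family annotation, as 60 listed loci, of which 47 had a probe that the platform annotation gives to exactly 1 gene, among 9253 genes named in this way. The family itself was chosen from the log ratios of these same arrays, with earlier results known, so every value here is a description of the 47 genes and supports nothing about why they were picked. The other 13 loci had no probe named for them and were not analysed here: AT1G23500, AT1G28650, AT1G53920, AT1G53940, AT1G53990, AT1G54000, AT1G54030, AT2G30220, AT3G04290, AT3G05180, AT3G14210, AT4G16230 and AT5G40990. Among these are the defence lipases GLIP1, GLIP2, GLIP3 and GLIP5, the glucosinolate gene ESM1 and the lipase LTL1.

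The samples were rosette leaves of *Arabidopsis thaliana*, 2 weeks old and grown in 16 h light and 8 h dark. Each of 2 two-colour arrays held RNA of 1 T1 plant that over-expressed NST1 under the 35S promoter, in Cy5, and of wild type, in Cy3. NST1, of the NAC transcription factors, turns on the genes of secondary wall thickening, and the 35S promoter is active in most cell types rather than only where NST1 is normally expressed. Plant 36 and plant 44, numbered as in the labels, came from separate transformation events, and each was measured on 1 array. No named probe stood for NST1, so the over-expression itself was not analysed here. The question was how the transcript levels of the family in leaves of over-expressors compare with those of wild type.

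Values are the deposited log ratios, read as log10, which are likely over-expressor over wild type from the dye labels. No source used here states the log base, the centring or the direction, so a fold is right only under a base of 10. If the ratio ran the other way, every sign would turn, "fell" and "rose" would change places and ranks from the lowest would be ranks from the highest. With 0 dye-swapped arrays, a dye effect on a gene and the genotype cannot be told apart, and wild type counts as 1 sample whose own spread is unknown. The arrays give ratios and no levels, so whether the leaf markers were present could not be checked, and fewer cells expressing a gene cannot be told apart from less RNA per cell. Probe sequences were not used here, so cross-hybridisation between relatives was not tested. The median over all named genes was 0.001, with quartiles of -0.066 and 0.079.

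Lipases and esterases of this family are known for several roles. Some build cutin, the polyester of the leaf cuticle, by joining fatty acid units outside the epidermal cell. Others act in defence against fungi, in the breakdown of glucosinolates, in the oil content of seeds or in the coat of pollen. The role of most members has not been assigned in the sources used here, so unassigned genes are named by locus.

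Most of the 47 measured genes lay a little below 0 and a few lay far below. The family median was -0.061, with -0.056 in plant 36 and -0.063 in plant 44, against 0.001 over all 9253 genes. On both arrays 29 members (61.7%) lay below 0, against 41.1% of all genes, and 10 members (21.3%) lay above 0, against 42.2%. The spread was wide, since the means ran between -1.05 and 0.88, with an SD across members of 0.300, against 0.167 across all genes.

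On both arrays, 7 of the 47 members (14.9%) were lower by 2-fold or more, against a background of 2.44% of all genes. On both arrays, 1 member (2.13%) was higher by 2-fold or more, against a background of 2.73%. In limma, with Benjamini-Hochberg adjustment over all 22575 probes and a threshold of 0.05, 13 members (27.7%) fell, against a background of 12.4%, and 2 rose (4.26%), against a background of 10%. The other 32 members did not pass. As the family was chosen on this contrast, nothing is read from these shares. The p-values rest on the spread between plant 36 and plant 44, of each probe and, through the prior of limma, of all probes. The spread of wild type is not in them.

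**Figure D1:**
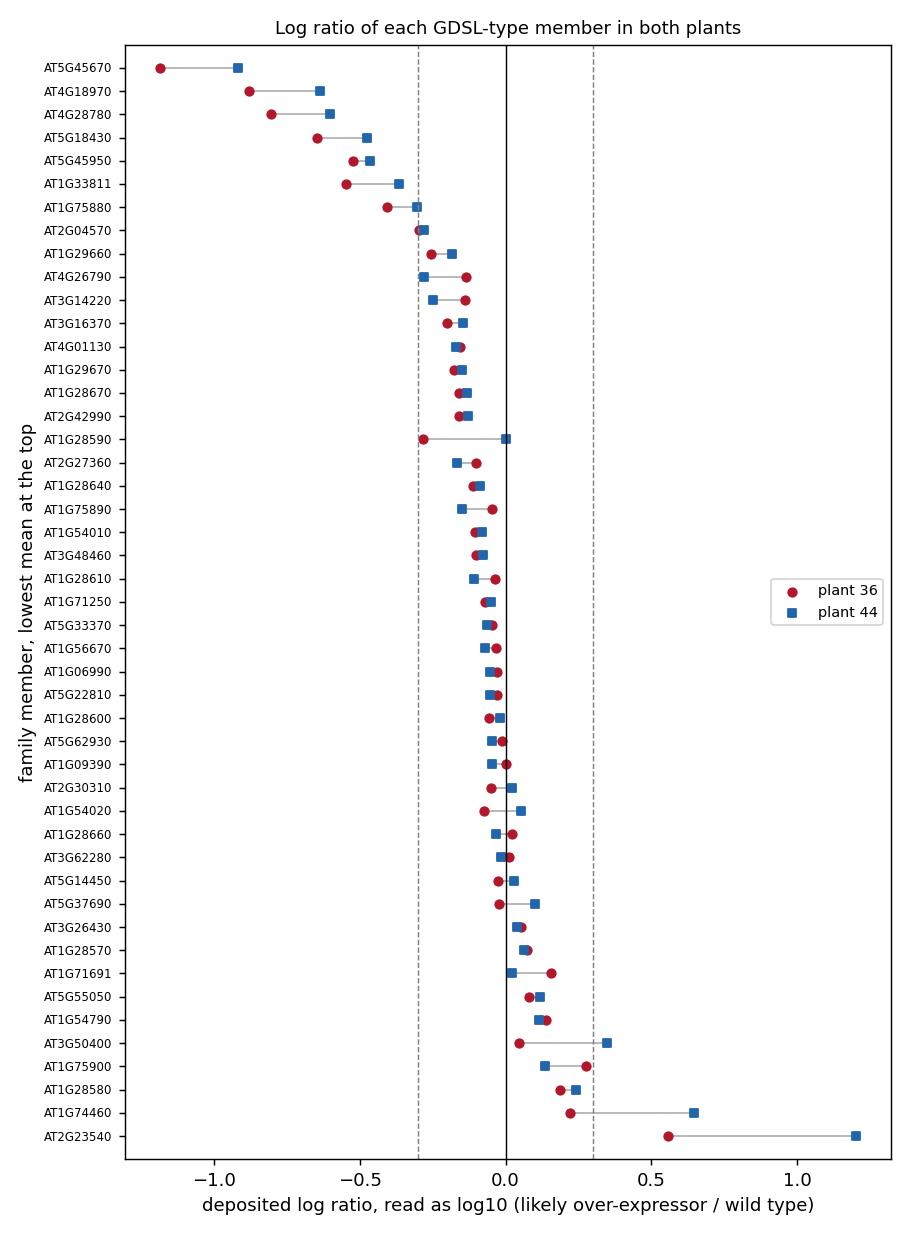
Deposited log ratio (x axis, read as log10) of each of the 47 measured members in plant 36 (red circles) and plant 44 (blue squares), sorted by mean, with a grey line joining the plants and dashed lines at 2-fold. The 7 genes at the top lie left of the lower dashed line on both arrays, and AT2G23540 alone lies right of the upper one on both.

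The lowest member was AT5G45670, at -1.184 in plant 36 and -0.916 in plant 44. Its mean of -1.05 ± 0.19 (SD, n = 2 plants) is 11.2-fold lower if the base is 10, and it ranked 2 from the lowest of all 9253 genes. Both plants lay far below every other member on their own array.

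AT4G18970 followed, at -0.881 in plant 36 and -0.637 in plant 44. This gene is known as SFAR5, one of a set of GDSL lipases whose activity lowers the fatty acid content of seeds. Its mean of -0.76 ± 0.17 (SD, n = 2 plants) is 5.74-fold lower if the base is 10, at rank 10 from the lowest. It overlaps the long non-coding RNA gene AT4G06860 in the RefSeq annotation, and with no probe strand known, RNA of either could contribute to its value.

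AT4G28780 lay at -0.804 in plant 36 and -0.602 in plant 44, a mean of -0.70 ± 0.14 (SD, n = 2 plants), or 5.05-fold lower if the base is 10. AT5G18430 lay at -0.648 in plant 36 and -0.474 in plant 44, or 3.64-fold lower. They ranked 13 and 32 from the lowest. In both genes the value of plant 36 was the farther from 0, as in AT5G45670 and AT4G18970.

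AT5G45950 lay at -0.522 in plant 36 and -0.464 in plant 44, 3.11-fold lower on average if the base is 10. It had the closest agreement between plants among the 7, with an SD of 0.041. AT1G33811 lay at -0.547 in plant 36 and -0.365 in plant 44, or 2.86-fold lower, and its adjusted p of 0.0498 in limma was the nearest to the threshold. AT1G75880 lay at -0.406 in plant 36 and -0.304 in plant 44, or 2.26-fold lower, so that plant 44 was just past 2-fold, and short of it with each array centred on its median, which left 6 members at that limit. These 3 genes ranked 49, 69 and 175 from the lowest. All 7 fell in limma, with adjusted p between 0.0258 and 0.0498, but these calls depend on the fit. None of the 7 passed without a prior or at an adjusted p of 0.01, only AT5G45670 and AT5G45950 of them passed with a minimum fold of 1.2, and AT1G33811 did not pass when probes below -1.2 on both arrays were left out.

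Of the 13 members that fell, 6 did so by less than 2-fold. AT2G04570 lay at -0.297 in plant 36 and -0.280 in plant 44, just short of the limit of 2-fold. AT1G29660 lay at -0.257 and -0.182 and its neighbour AT1G29670 at -0.176 and -0.148, each given for plant 36 and then plant 44. AT4G01130 lay at -0.155 in plant 36 and -0.171 in plant 44. The remaining members that fell were ARAB-1 (AT1G28670), with a mean of -0.15 ± 0.02, and AT2G42990, known as SFAR3, with a mean of -0.14 ± 0.02 (SD, n = 2 plants each). Their values were small, with SDs between plants of 0.011 to 0.053, against a median SD of 0.025 over all genes. A small value passes in limma only if the plants lie close, so nothing is read from these SDs. AT1G29660 did not pass without the probes below -1.2 on both arrays.

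The highest member was AT2G23540, at 0.558 in plant 36 and 1.201 in plant 44. Its mean of 0.88 ± 0.45 (SD, n = 2 plants) is 7.58-fold higher if the base is 10, at rank 17 from the highest of all genes. The plants differed so much that it did not pass in limma, with adjusted p = 0.0992. AT1G74460 came next, at 0.221 in plant 36 and 0.645 in plant 44, a mean of 0.43 ± 0.30 with adjusted p = 0.145 in limma. Both genes lay above 0 in both plants, and plant 44 was the higher in each.

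The 2 members that rose were smaller in size. AT1G28580 lay at 0.188 in plant 36 and 0.243 in plant 44, or 1.64-fold higher if the base is 10 (limma, adjusted p = 0.0395). AT1G54790, known as SFAR1, lay at 0.139 in plant 36 and 0.115 in plant 44, or 1.34-fold higher (limma, adjusted p = 0.0462). Of the other high members, AT3G50400 lay at 0.045 in plant 36 and 0.348 in plant 44, whereas AT5G55050 had a mean of 0.10 and AT1G71691 one of 0.089. AT3G26430 lay at 0.047 on average and AT5G14450 at 0.0005, and none of these passed.

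Of the 4 measured genes of the SFAR set, SFAR5 and SFAR3 fell and SFAR1 rose, with the values given before. SFAR4 (AT3G48460) lay at -0.100 in plant 36 and -0.078 in plant 44 and did not pass. Among all genes 10% rose and 12.4% fell, and nothing is read from calls in 4 genes. SFAR5, SFAR3 and SFAR1 did not pass without a prior, at an adjusted p of 0.01 or with a minimum fold of 1.2. CUS2 (AT5G33370), a cutin synthase of the cuticular ridges on sepals, lay at -0.046 in plant 36 and -0.063 in plant 44 and did not pass. It was the single measured gene of the pair listed for cutin, since LTL1 had no named probe. Among relatives of the myrosinase-associated lipases, GLL23 (AT1G54010) had a mean of -0.092, AT1G54020 one of -0.010 and AT3G14220, the neighbour of ESM1, one of -0.19, and none passed.

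The listed loci formed 5 tandem clusters, defined as members with at most 5 other genes between neighbours in the RefSeq gene order. They held 23 of the 60 loci and 16 of the 47 measured genes. Of these 16, 1 was lower and 0 were higher by 2-fold or more on both arrays, with means between -0.36 and 0.22. Of the 31 measured genes outside clusters, 6 were lower and 1 was higher by that limit, with means between -1.05 and 0.88. Among all genes, 2.44% were lower and 2.73% higher by that limit, and nothing is read from these counts. The medians were -0.094 in clusters and -0.051 outside, and the difference was not tested. The list of loci may not hold every gene of the family, so a member counted outside clusters could have a relative beside it that was not listed. AT5G45960, for example, was not listed, lay next to AT5G45950 with 0 genes between them, and fell, at -0.118 in plant 36 and -0.135 in plant 44.

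The largest cluster, AT1G28570 to AT1G28670 on chromosome 1, held 9 loci, 8 of them measured, with 3 other genes among them. Its median was -0.055, with medians of -0.0455 in plant 36 and -0.0255 in plant 44, and its members lay between -0.15 and 0.22. AT1G28580 rose and ARAB-1 fell, and between these lay AT1G28590 at -0.283 in plant 36 and 0.000 in plant 44, AT1G28600 at -0.056 and -0.019, AT1G28610 at -0.035 and -0.108, AT1G28640 at -0.110 and -0.089 and AT1G28660 at 0.023 and -0.032 for the same plants. AT1G28570, at the other end, lay at 0.075 in plant 36 and 0.065 in plant 44. Of its 8 measured members, 1 rose, 1 fell and 6 did not pass. Among all genes 10% rose and 12.4% fell, so nothing is read from these counts. Neither AT1G28580 nor ARAB-1 passed without a prior, at an adjusted p of 0.01 or with a minimum fold of 1.2. The exact 0 of AT1G28590 in plant 44 was shared by 58 probes with 1 gene on that array, and whether it was measured is not known.

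The cluster of extracellular lipases EXL1 to EXL3 (AT1G75880, AT1G75890 and AT1G75900) was spread the most, over 0.56 on the log10 scale. EXL proteins are relatives of the lipases of the pollen coat. EXL1 fell, with the values given before. EXL2 lay at -0.045 in plant 36 and -0.148 in plant 44, and EXL3 at 0.275 in plant 36 and 0.134 in plant 44, with adjusted p = 0.177 and 0.097 in limma. EXL1 and EXL3 thus had opposite signs on both arrays, although only EXL1 passed.

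AT1G29660 and AT1G29670, with 0 other genes between them, both fell, to 1.66-fold and 1.45-fold lower if the base is 10. In the cluster AT1G53920 to AT1G54030, where GLIP2, GLIP3 and GLIP5 lie, only 2 of 7 loci were measured, GLL23 and AT1G54020. In the pair of ESM1 and AT3G14220, only AT3G14220 was measured, at -0.138 in plant 36 and -0.248 in plant 44.

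**Figure D2:**
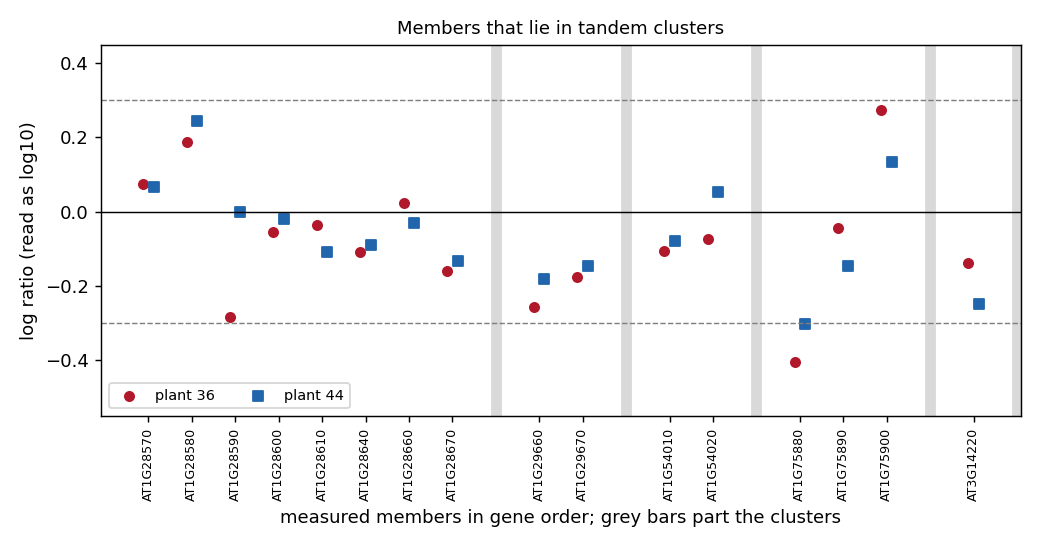
Deposited log ratio (y axis, read as log10) of the 16 measured members that lie in tandem clusters, in gene order, for plant 36 (red circles) and plant 44 (blue squares), with dashed lines at 2-fold. Members of a cluster lie on both sides of 0 in the largest cluster and in that of AT1G75880 to AT1G75900, where the first is below the lower dashed line and the last is above 0.

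The 7 members that were lower by 2-fold or more came from chromosomes 1, 4 and 5. Of these, 2 were among 23 measured members of chromosome 1, 2 among 4 of chromosome 4 and 3 among 9 of chromosome 5, with 0 among 5 of chromosome 2 and 0 among 6 of chromosome 3. With 2.44% of all genes lower by that limit, these groups are too small to compare, and nothing is read from them. Measured genes next to the 8 members at or beyond 2-fold were looked up within 10 genes on each side, which gave 14 neighbours with a median of 0.033. These neighbours included EXL2, itself a member, and AT5G45960, the unlisted gene that fell. Of these 14, 3 fell and 2 rose, where 12.4% of all genes fell and 10% rose, so nothing is read from these counts. None overlapped its member in the annotation. AT4G28790, a bHLH transcription factor gene directly beside AT4G28780, lay at 1.299 in plant 36 and 0.967 in plant 44, the opposite sign to that lipase. CHLI2 (AT5G45930), a subunit gene of magnesium chelatase in chlorophyll synthesis, lay next to AT5G45950 with 1 gene between them and fell as well, with a mean of -0.36.

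The plants were compared member by member, as a description without a test, since each had 1 array. Across the 47 members the values of the plants had Pearson r = 0.884 and Spearman rho = 0.891, against 0.872 and 0.864 across all 9253 genes. The arrays share wild type and dye orientation, and genes are not independent replicates. All 7 members that were lower by 2-fold or more were farther from 0 in plant 36 than in plant 44. The same held for 77.4% of the 226 genes that were lower by that limit on both arrays, so this order was common on these arrays.

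Plants differed by 2-fold or more in 3 members, each of them higher in plant 44. The share of all genes that differed by this much was not worked out, so nothing is read from this count or its direction. The difference of plant 36 minus plant 44 was -0.643 in AT2G23540, -0.424 in AT1G74460 and -0.303 in AT3G50400. After these came AT1G28590 at -0.283, which rests on the 0.000 of plant 44, and AT5G45670 at -0.268. In the 3 members that were higher in plant 44 by 2-fold or more, both plants lay above 0.

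**Figure D3:**
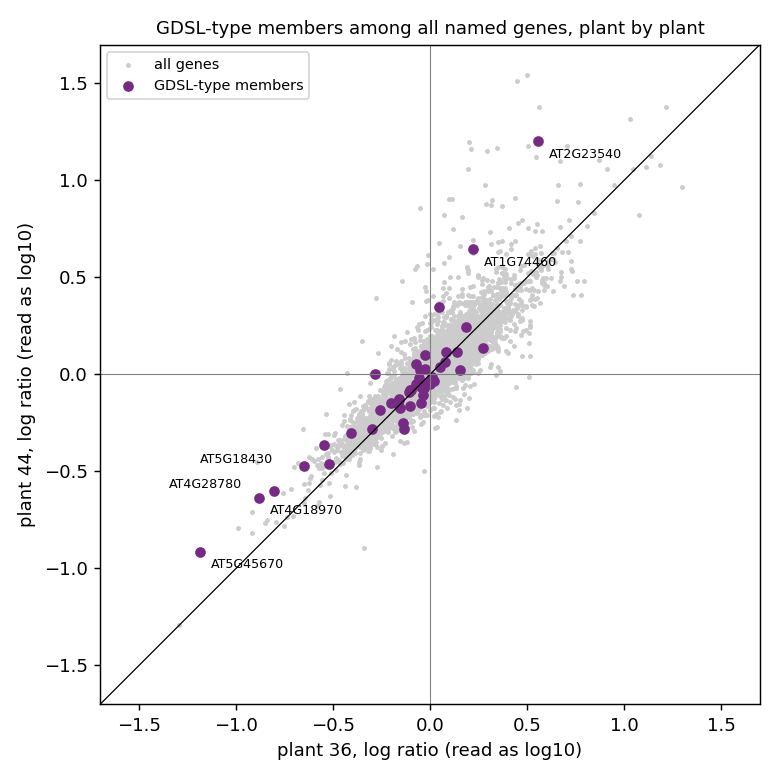
Log ratio of plant 44 (y axis) against that of plant 36 (x axis), both read as log10, for 9253 named genes (grey) and the 47 measured members (purple), with the line of equal values. The lowest members lie just above the line, where plant 36 is the farther from 0, and AT2G23540 and AT1G74460 lie well above it.

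Of the members, 2 had a pair of probes made from 1 accession each, and the probes disagreed in size. For AT3G16370, one probe lay at -0.326 in plant 36 and -0.231 in plant 44 and fell, with adjusted p = 0.0454 in limma. The other lay at -0.072 in plant 36 and -0.063 in plant 44, with adjusted p = 0.0818, so that the gene was not counted as fallen. For AT5G37690, the means of the probes were -0.053 and 0.13, with opposite signs. Among all 77 genes with 2 probes, 45 had the same sign in both, with a median difference of 0.053 in size, and this limits how far the value of a member with 1 probe can be trusted.

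Of the members below 0 that did not pass, AT4G26790 was the lowest, at -0.134 in plant 36 and -0.281 in plant 44 (limma, adjusted p = 0.0998). The 9 members not yet described had means between -0.13 and -0.0015 and did not pass. They were AT1G06990, AT1G09390, AT1G56670, AT1G71250, AT2G27360, AT2G30310, AT3G62280, AT5G22810 and AT5G62930. AT1G09390 was listed at 0.000 in plant 36. In all, 23 of the 47 members had a mean within 0.1 of 0 on the log10 scale.

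Other genes of the cuticle were taken from lists of cutin and suberin synthesis, wax synthesis and their regulators. Of 27 genes of cutin and suberin synthesis, 0 had a named probe, and of 14 wax genes 1 did. This was the wax ester synthase WSD1 (AT5G37300), at -0.024 in plant 36 and -0.023 in plant 44, which did not pass. Of 11 regulators, 3 were measured. SHN3 (AT5G25390), an AP2/ERF factor that promotes cuticle formation, fell, at -0.248 in plant 36 and -0.206 in plant 44 (limma, adjusted p = 0.0343). SHN2 (AT5G11190) had a mean of -0.066 and the wax repressor DEWAX (AT5G61590) one of 0.090, and neither passed.

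Markers of leaf cell types were few. None of 4 listed epidermis genes and none of 6 guard cell genes had a named probe, so a shift in these cells was not analysed here. The trichome gene TRY (AT5G53200) had a mean of -0.024 and did not pass. The 3 measured root markers lay between -0.078 and -0.030 and 0 of them passed. In the mesophyll list, LHCB4.3 (AT2G40100), an antenna protein of photosystem II, fell to -0.23, and RCA (AT2G39730) lay at -0.15 and did not pass. RCA was listed at -0.22 in plant 36 and -0.082 in plant 44. This same pair of values was held by 73 probes, so whether RCA was measured is not known. The part of cell type makeup in the values of the family was not tested.

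A pair of other esterase families was set beside the GDSL-type genes. The carboxylesterases named CXE have an alpha/beta hydrolase fold, unlike the flavodoxin-like fold of GDSL enzymes. Of 20 CXE genes, 12 were measured, with a median of 0.098, against -0.061 for the GDSL-type family. The CXE median was 0.134 in plant 36 and 0.044 in plant 44, so its size depends on the array. Of the 12, 3 rose, 1 fell and 8 did not pass, where 10% of all genes rose and 12.4% fell. CXE6 (AT1G68620) lay at 0.431 in plant 36 and 0.514 in plant 44, CXE20 (AT5G62180) at 0.436 and 0.438 and CXE1 (AT1G19190) at 0.393 and 0.410, while CXE4 (AT1G49650) lay at -0.406 and -0.357. On both arrays 3 of the 12 CXE genes were higher and 1 was lower by 2-fold or more. Among the 47 GDSL-type genes, 7 were lower and 1 was higher, AT2G23540, which did not pass. Over all genes 2.73% were higher and 2.44% lower by that limit, and nothing is read from these counts.

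Pectin acetylesterases, named PAE, remove acetyl groups from pectin in the wall. Of 12 PAE genes, 5 were measured, with a median of 0.078, at 0.044 in plant 36 and 0.112 in plant 44. PAE2 (AT1G57590) rose, at 0.454 in plant 36 and 0.459 in plant 44, and the other 4 lay between -0.047 and 0.087 and did not pass. Among all genes 10% rose, so nothing is read from this count. The differences between the medians of the families were not tested.

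**Figure D4:**
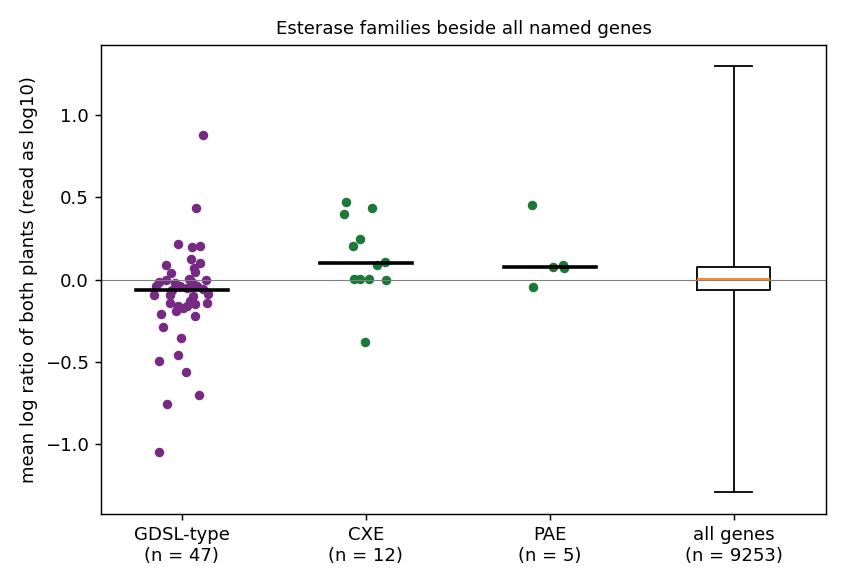
Mean log ratio of both plants (y axis, read as log10) for each measured GDSL-type, CXE and PAE gene (points, with the median as a black bar), beside all 9253 named genes (box at the quartiles, whiskers to the lowest and highest gene). The GDSL-type median lies at -0.061 and those of the CXE and PAE genes at 0.098 and 0.078.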

How the data were processed

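RNA of 2 over-expressor plants was measured against wild type on 2 arrays. The authors deposited log ratios, read here as log10 because they are held within -2 and 2; the dyes are known per the labels, and no source used here states the steps behind the values. Probes were named through the platform annotation, with symbols updated by gene identifier in the TAIR10.1 RefSeq table. Of 22575 probes, 9335 had 1 gene, 9317 of which matched that table, 40 had several and 13200 were unnamed here. Among all probes, 463 lay below -1.2 on both arrays, and these stayed in the main fit and its adjustment. Ranks were taken among named genes only. Probes of 1 gene were averaged, and a gene passed if all its probes passed with 1 sign. In R 4.3.3, limma 3.58.1 took all probes in 1 intercept-only fit with empirical Bayes (prior degrees of freedom 1.37, residual 1), tested against 0 on both sides, with Benjamini-Hochberg adjustment over all probes. The fit was tested on simulated data with independent arrays, variances drawn from a prior fitted to these data, and changed probes at 2-fold. This checked the code and not whether the p-values hold for these arrays.

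Members and lists were chosen with earlier results of these data known. Named genes were the 12 highest and 12 lowest members, the 5 with the largest difference between plants, and those in clusters and role lists. Of the other lists, genes that passed and up to 2 that did not were named. Neighbours and AT4G01130 were named after values were seen. Alternatives were centring, scaling, the prior, the probes fitted, thresholds, fold limits and the cluster rule. Sequences were not used here. Intensities were not used here, and precision is limited by the number of arrays.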

Additional observations from a re-analysis of the deposited data

How the results depend on the processing

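Changes to the prior, the probes fitted or the thresholds leave each mean as it was, so they cannot change a sign. Centring and scaling each array moved the means little beside the size of those that passed. The sign of the members that passed was therefore not tested by these alternatives. Without a prior, 0 members rose and 0 fell, although 4 had an unadjusted p below 0.05 (28 in limma); at an adjusted p of 0.01, limma called 0 higher and 0 lower. With a minimum fold of 1.2, 0 rose and 3 fell (AT5G45670, AT5G45950 and AT2G04570). The lower count was 11 to 18 with the other fits. With a limit of 1.5-fold on both arrays, 3 members were higher, with 3-fold 3 were lower, and with a log2 reading 0 in either direction. On single arrays, 1 to 3 members lay at or beyond 2-fold higher, 3 of them in plant 44, and 7 to 7 lower. For the counts in this paragraph, the shares over all genes were not worked out. They show only how the member counts depend on the setting. By single array, the family median was -0.063 to -0.056, that of AT1G28570 to AT1G28670 -0.0455 to -0.0255, and that of the root list -0.067 to -0.06. With the mean of both arrays, these medians were -0.061, -0.0545 and -0.0685 in the same order. The EXL median was -0.23 when members had 0 other genes between them, since EXL3 was then left out by construction, against -0.097, and -0.148 to -0.045 on single arrays. On single arrays the CXE median was 0.0435 to 0.1335 and the PAE median 0.044 to 0.112. Calls without 1 replicate were not run, because 1 array leaves no residual degrees of freedom. Promoter and protein sequences were not run. Any limit from signal over background is unknown, as intensities were not used.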
